A study of Mus musculus with 32 samples.

Results

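Mast cell proteases and receptors were followed across 32 mouse mesothelioma tumors as a set of 10 genes chosen by symbol: Cpa3, Cma1, Mcpt4, Tpsb2, Tpsab1, Kit, Ms4a2, Fcer1a, Mrgprb2 and Hdc. Of these, 7 had a row among the 39676 genes of the count table, and expression of the 3 without a row (Cma1, Mcpt4 and Tpsb2) is not analysed here. All 7 passed the filter on low counts in every comparison. Tumors were grown from AB1 cells in BALB/c mice (500000 cells per mouse) or from AE17 cells in C57BL/6 mice (1000000 cells per mouse), both murine mesothelioma lines in their matched strain. Cells were placed in the pleural space (intrapleural, IPL) or under the skin of the right flank (subcutaneous, SC), which gave 4 groups of 8 tumors, named here by model and site (AB1 SC, AB1 IPL, AE17 SC, AE17 IPL). All mice were female, 8 to 10 weeks old and untreated, and RNA was taken from the whole tumor on day 10. For IPL tumors the labels name tissue around the tumor as collected too, while the methods say that it and the lungs were removed, so how much host tissue came along is not settled. Each model is a single cell line in a single strain, so line, strain and cell dose cannot be told apart between AB1 and AE17.

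Mast cells arise from bone marrow progenitors and mature in tissues, with many in the skin, around vessels and on serous membranes such as the pleura. They store histamine and a set of proteases in granules: carboxypeptidase A3 (Cpa3), chymases (Cma1, Mcpt4) and tryptases (Tpsab1, Tpsb2). Their growth depends on Kit, the receptor for stem cell factor. Antigen-bound IgE sets off granule release through the high-affinity IgE receptor, whose alpha chain (Fcer1a) binds IgE and whose beta chain (Ms4a2) amplifies the signal, while Mrgprb2 answers to basic peptides and drugs without IgE. Hdc, histidine decarboxylase, makes histamine and is also found in basophils, neutrophils and other myeloid cells, and Kit is also found on melanocytes, progenitors and interstitial cells. In C57BL/6 mice Tpsab1 is known to carry a splice-site change with which little of its tryptase is made.

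The 7 genes lie on 7 chromosomes of GRCm38 (GENCODE M21) and all code for proteins. Cpa3 is at chr3:20215620-20242181, Tpsab1 at chr17:25343245-25345562, Ms4a2 at chr19:11615523-11623719, Fcer1a at chr1:173221284-173227214, Mrgprb2 at chr7:48550965-48558086 and Hdc at chr2:126593667-126619299, all on the minus strand, and Kit is at chr5:75574916-75656722 on the plus strand. Reads were 50 bases long. Cpa3, Tpsab1, Kit, Fcer1a and Mrgprb2 shared no stretch of 50 bases with a transcript of another gene, while Ms4a2 shared 2.1% of its stretches (with Ms4a4b) and Hdc 0.141%.

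GATA factors bind many mast cell genes, so their motif (AGATAA or AGATAG, and also TGATAA or TGATAG) was searched on both strands in the 300 bases around each start site (250 before, 50 after; RefSeq, GRCm38.p6). A promoter was at hand for 8 of the 10 genes (Cma1 and Mcpt4 included, Tpsab1 and Tpsb2 not), and 7 of these 8 had a match, which 29.6% of 32544 promoters have. The promoter without a match was that of Kit. An E-box for MITF (the letters CATGTG on either strand, or the palindrome CACGTG) was present in 1 of the 8, Fcer1a, against 20.5% of all promoters. The promoters of the 4 genes below are shown because, of the 7 genes with counts, Mrgprb2, Ms4a2 and Fcer1a had the highest correlations with Cpa3 from tumor to tumor (given further on), with the GATA matches in capitals, 5′ to 3′ on the minus strand: Cpa3 at chr3:20242132-20242431, Mrgprb2 at chr7:48558037-48558336, Ms4a2 at chr19:11623670-11623969 and Fcer1a at chr1:173227180-173227479.
Cpa3: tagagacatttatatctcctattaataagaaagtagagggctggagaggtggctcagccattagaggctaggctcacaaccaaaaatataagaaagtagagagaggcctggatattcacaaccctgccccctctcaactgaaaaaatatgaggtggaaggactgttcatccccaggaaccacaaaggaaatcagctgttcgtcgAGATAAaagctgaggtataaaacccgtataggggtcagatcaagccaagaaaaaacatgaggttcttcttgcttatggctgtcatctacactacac
Mrgprb2: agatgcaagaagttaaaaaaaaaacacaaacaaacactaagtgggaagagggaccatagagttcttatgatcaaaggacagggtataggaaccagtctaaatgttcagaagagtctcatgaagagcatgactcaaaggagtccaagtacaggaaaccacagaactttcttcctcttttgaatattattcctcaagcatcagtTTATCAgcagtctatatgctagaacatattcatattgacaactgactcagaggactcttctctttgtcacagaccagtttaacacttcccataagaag
Ms4a2: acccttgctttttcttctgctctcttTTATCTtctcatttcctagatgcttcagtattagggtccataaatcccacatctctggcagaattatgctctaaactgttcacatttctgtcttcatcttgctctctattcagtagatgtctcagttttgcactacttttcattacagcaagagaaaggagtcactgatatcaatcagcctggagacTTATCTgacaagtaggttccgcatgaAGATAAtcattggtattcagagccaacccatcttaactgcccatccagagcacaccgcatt
Fcer1a: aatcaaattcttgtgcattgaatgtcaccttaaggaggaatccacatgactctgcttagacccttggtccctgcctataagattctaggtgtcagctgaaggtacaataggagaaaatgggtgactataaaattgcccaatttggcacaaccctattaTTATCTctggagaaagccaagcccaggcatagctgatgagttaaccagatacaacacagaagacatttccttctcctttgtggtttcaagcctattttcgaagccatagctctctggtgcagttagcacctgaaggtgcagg
The match began at position -46 from the start site in Cpa3 and at -48 in Mrgprb2. Ms4a2 had 3 matches, at -224, -37 and -11, and Fcer1a had a match at -92. These are letter matches only, and no binding was measured.

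Total counts per tumor were between 15432258 and 20649645. Levels are given as counts per 1000000 counted reads (CPM, with library sizes scaled by TMM factors), on which 3 counts, taken as the smallest detectable number, are between 0.139 and 0.19 CPM. Cpa3, Tpsab1, Kit and Hdc were above this number in every tumor, with at least 31 counts of Cpa3, 9 of Tpsab1, 183 of Kit and 36 of Hdc. Ms4a2, Fcer1a and Mrgprb2 had 2 counts each in AB1 IPL replicate 4, below the detectable number. Sequencing lane followed the groups in part: AB1 IPL tumors ran in lane 3, AB1 SC tumors in lane 3 (2 tumors) and lane 2 (6 tumors), AE17 IPL tumors in lane 2 (5 tumors) and lane 1 (3 tumors), and AE17 SC tumors in lane 1.

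**Figure D1:**
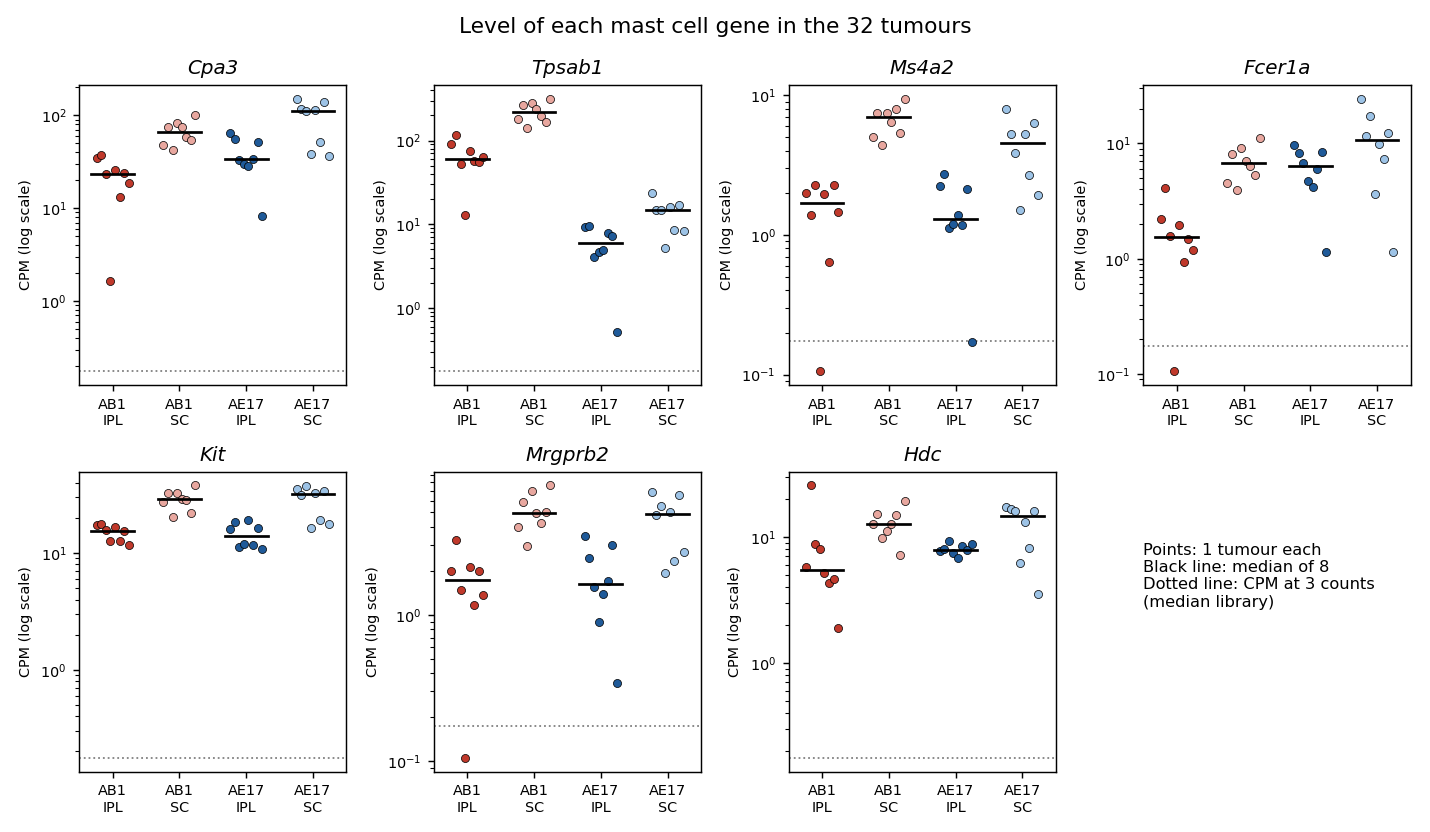
Level of each of the 7 genes in CPM on a log axis, with 1 point per tumor and a black line at the median of 8 tumors per group; the dotted line marks 3 counts in the median library. IPL medians lie below SC medians of the same model in all 7 panels, and Tpsab1 is the panel in which AB1 and AE17 tumors of the same site separate.

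Per kilobase of exon, the proteases Tpsab1 and Cpa3 were the most abundant of the 7 genes in AB1 tumors, and Cpa3 and Fcer1a in AE17 tumors. In AB1 SC tumors Tpsab1 stood at 107 ± 29.7 CPM per kilobase (mean ± SD, n = 8) and Cpa3 at 44.2 ± 13. Fcer1a followed at 6.96 ± 2.41, then Kit at 3.25 ± 0.649, Mrgprb2 at 2.51 ± 0.756, Ms4a2 at 2.39 ± 0.606 and Hdc at 2.02 ± 0.577 CPM per kilobase. From Kit down, neighbors in this order lay within each other's spread. In AE17 SC tumors Cpa3 came first at 62.5 ± 30.2 CPM per kilobase, followed by Fcer1a at 11 ± 7.48 and Tpsab1 at 6.48 ± 2.86, which lay within their spread. Cpa3 was thus ahead of Fcer1a in both models, while the place of Tpsab1 changed.

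To ask whether the site of growth went with a different mast cell signal, IPL tumors were compared with SC tumors within each model. In AB1, 6 of the 7 genes were lower in IPL tumors, by between 1.95 and 4.45 times, and Hdc did not pass the test. The median log2 fold change of the 7 genes was -1.64, beside -0.0023 over all genes tested. Of all genes tested 23% were called in either direction, and 10.7% were called lower in IPL tumors. In 4 of the 7 genes the groups did not overlap, as in 5.02% of all genes.

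The stored protease Cpa3 ranged from 1.63 to 37.6 CPM (median 23.6) in the AB1 IPL tumors and from 42.6 to 101 CPM (median 66.7) in the AB1 SC tumors. The groups did not overlap. Its log2 fold change was -1.61 ± 0.37 (SE, 8 against 8, adjusted p = 0.00491, edgeR quasi-likelihood test). The tryptase Tpsab1 ranged from 13 to 117 CPM (median 60.3) in the IPL tumors and from 141 to 317 CPM (median 218) in the SC tumors. Every IPL tumor was again below every SC tumor, with a log2 fold change of -1.78 ± 0.30 (SE, adjusted p = 0.00046, edgeR).

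The beta and alpha chains of the IgE receptor, Ms4a2 and Fcer1a, showed the largest differences of the 7 genes in AB1. Ms4a2 ranged from 0.105 to 2.29 CPM (median 1.71) in the IPL tumors and from 4.42 to 9.48 CPM (median 6.96) in the SC tumors, without overlap, at a log2 fold change of -2.16 ± 0.35 (SE, adjusted p = 0.000301, edgeR). Fcer1a ranged from 0.105 to 4.1 CPM (median 1.54) in the IPL tumors and from 3.95 to 11.1 CPM (median 6.73) in the SC tumors. Of the 8 IPL tumors, 7 were below all SC tumors, and the log2 fold change was -2.04 ± 0.39 (SE, adjusted p = 0.00121, edgeR).

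Kit differed least of the 6 genes and most evenly: it ranged from 11.8 to 17.8 CPM (median 15.6) in the AB1 IPL tumors and from 20.6 to 38.1 CPM (median 28.9) in the AB1 SC tumors, without overlap. The log2 fold change was -0.96 ± 0.13 (SE, adjusted p = 7.14e-05, edgeR). Mrgprb2 ranged from 0.105 to 3.25 CPM (median 1.73) in the IPL tumors and from 2.95 to 7.64 CPM (median 4.98) in the SC tumors, with 7 of 8 IPL tumors below all SC tumors. Its log2 fold change was -1.64 ± 0.35 (SE, adjusted p = 0.00272, edgeR).

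Hdc ranged from 1.88 to 25.7 CPM (median 5.47) in the AB1 IPL tumors and from 7.19 to 19.3 CPM (median 12.7) in the AB1 SC tumors. AB1 IPL replicate 2 was above every SC tumor, and 5 of the 8 IPL tumors were below all of them. The log2 fold change was -0.69 ± 0.39 (SE, adjusted p = 0.213, edgeR). Without AB1 IPL replicate 2 it was -1.21 with an adjusted p of 0.00346, so that this tumor decided the call.

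AB1 IPL replicate 4 was the lowest of its group in Cpa3, Tpsab1, Ms4a2, Fcer1a and Mrgprb2, but not in Kit (12.6 CPM) or Hdc (8.06 CPM). Without it the same 6 genes were called, with a median log2 fold change of -1.49 and 23.7% of all genes called. Within lane 3 alone (8 IPL against 2 SC tumors) the log2 fold changes were -1.52 for Cpa3, -1.82 for Tpsab1, -2.10 for Ms4a2, -1.95 for Fcer1a, -1.07 for Kit, -1.61 for Mrgprb2 and -0.86 for Hdc, close to the pooled values. Kit was called in that fit (adjusted p = 0.0198, edgeR), and 1.06% of all genes were. With the lane as a covariate 3 genes were called (Tpsab1, Ms4a2 and Kit), beside 2.64% of all genes.

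In a bulk sample fewer mast cells and less RNA of these genes per cell cannot be told apart. Other cell types also differed between the AB1 sites. Ptprc, the CD45 gene of all leukocytes, ranged from 35.7 to 182 CPM in AB1 IPL tumors and from 205 to 397 CPM in AB1 SC tumors, without overlap. Its log2 fold change was -1.18 (adjusted p = 0.0018, edgeR), and AB1 IPL replicate 4 was its lowest tumor. All 5 skeletal muscle markers were higher in AB1 IPL tumors (summed level 92.5 to 3464 CPM, against 48.3 to 315.9 CPM in SC), as were 2 of 3 fibroblast markers and 2 of 3 adipocyte markers tested. Keratinocyte markers, 4 of 5 with a row, were near the detection limit at both sites (summed level 1.11 to 2.77 CPM in AB1 IPL and 0.583 to 2.12 CPM in AB1 SC). The part of these cells in the mast cell result was not tested.

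In AE17, all 7 log2 fold changes were negative in IPL against SC tumors, but only Kit and Ms4a2 passed the test, with 5.73% of all genes called and 3.13% called lower. The median log2 fold change of the 7 genes was -1.16, beside 0.0043 over all genes. None of the 7 separated the AE17 groups without overlap, and 0.573% of all genes did.

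Kit ranged from 10.9 to 19.1 CPM (median 14.1) in the AE17 IPL tumors and from 16.4 to 37.4 CPM (median 32.2) in the AE17 SC tumors. Its log2 fold change was -0.94 ± 0.20 (SE, adjusted p = 0.0159, edgeR). Ms4a2 ranged from 0.171 to 2.73 CPM (median 1.29) in the IPL tumors and from 1.51 to 8.04 CPM (median 4.57) in the SC tumors. Its log2 fold change was -1.51 ± 0.41 (SE, adjusted p = 0.0404, edgeR), and the call was lost without any of 7 tumors (AE17 IPL replicates 3, 4, 6 and 7, and AE17 SC replicates 2, 5 and 7), with log2 fold changes between -1.43 and -1.60 and adjusted p between 0.0611 and 0.078.

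Cpa3 ranged from 8.15 to 65.2 CPM (median 33.5) in the AE17 IPL tumors and from 36.6 to 151 CPM (median 112) in the AE17 SC tumors, at a log2 fold change of -1.30 ± 0.38 (SE, adjusted p = 0.0534, edgeR). It passed without AE17 SC replicate 4 (adjusted p = 0.034) or 8 (adjusted p = 0.0478). Tpsab1 ranged from 0.513 to 9.62 CPM (median 6.05) in the IPL tumors and from 5.18 to 23.9 CPM (median 14.8) in the SC tumors, at -1.16 ± 0.40 (SE, adjusted p = 0.0869, edgeR). Mrgprb2 ranged from 0.342 to 3.44 CPM (median 1.63) in the IPL tumors and from 1.93 to 6.93 CPM (median 4.88) in the SC tumors, at -1.27 ± 0.37 (SE, adjusted p = 0.0547, edgeR). It passed without AE17 IPL replicate 1 (adjusted p = 0.046) or AE17 SC replicate 4 (adjusted p = 0.0373). For these 3 genes at least 4 of 8 IPL tumors were below all SC tumors, and 5 of 8 SC tumors were above all IPL tumors.

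Fcer1a ranged from 1.14 to 9.74 CPM (median 6.38) in the AE17 IPL tumors and from 1.15 to 24.5 CPM (median 10.7) in the AE17 SC tumors, at a log2 fold change of -0.83 ± 0.47 (SE, adjusted p = 0.281, edgeR). Hdc ranged from 6.78 to 9.28 CPM (median 7.92) in the IPL tumors and from 3.52 to 17.2 CPM (median 14.5) in the SC tumors, at -0.59 ± 0.26 (SE, adjusted p = 0.165, edgeR), and passed without AE17 SC replicate 8 (-0.73, adjusted p = 0.0393). Hdc was even among AE17 IPL tumors, with a coefficient of variation of 9.69%, beside 47.6% for Cpa3.

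Among AE17 SC tumors, 3 were lower than the rest in these genes. Replicates 4, 6 and 8 held 38.3, 52.1 and 36.6 CPM of Cpa3, and the other 5 held between 111 and 151 CPM. The same 3 tumors were the lowest of their group in Tpsab1, Kit, Mrgprb2, Ms4a2, Fcer1a and Hdc. They also had the lowest Ptprc of the group, at 222, 199 and 114 CPM, beside 285 to 390 CPM in the other 5. In AE17 IPL tumors, replicate 8 was the lowest in Cpa3, Tpsab1, Ms4a2, Fcer1a, Mrgprb2 and Kit, while its Ptprc was the highest of the group at 373 CPM. Without AE17 IPL replicate 8, Kit and Ms4a2 were still called, and the median log2 fold change of the 7 genes was -0.996, with 3.44% of all genes called.

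Over all AE17 tumors Ptprc had a log2 fold change of 0.01 between the sites (adjusted p = 0.979, edgeR), and none of the muscle, fibroblast or adipocyte markers tested was called. Summed keratinocyte markers were 12.9 and 22.6 CPM in AE17 SC replicates 5 and 6, between 2.26 and 3.1 CPM in the other 6, and between 1.92 and 4.03 CPM in AE17 IPL tumors. Their part in the mast cell values was not tested. DESeq2 called 5 of the 7 genes (all but Fcer1a and Hdc), with 9.87% of all genes called. Within lane 1 (3 IPL against 8 SC tumors) the median log2 fold change was -1.38, no gene of the 7 was called, 5 had an unadjusted p under 0.05, and 0.0911% of all genes were called. With the lane as a covariate no gene of the 7 was called either (edgeR; 5 had an unadjusted p under 0.05), beside 0.00682% of all genes.

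The difference between the models' site effects was tested in 1 fit of all 32 tumors, as the AB1 log2 fold change minus that of AE17. No gene of the 7 was called by edgeR or DESeq2, and none had an unadjusted p under 0.05 by either, while 20.5% of all genes were called by edgeR and 19.1% by DESeq2. The difference was closest to 0 in Kit (-0.000274 ± 0.25, SE, 95% interval -0.51 to 0.51). It was widest in Fcer1a (-1.20 ± 0.63, 95% interval -2.48 to 0.09, adjusted p = 0.188, edgeR). For Cpa3 it was -0.28, with a 95% interval of -1.40 to 0.84. The lower bounds of the 6 genes other than Kit ran from -2.48 to -1.07, so that differences of that size are not excluded for them. Ptprc did differ in its site effect (-1.17, adjusted p = 0.0115, edgeR), being lower in IPL tumors of AB1 and level in AE17.

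**Figure D2:**
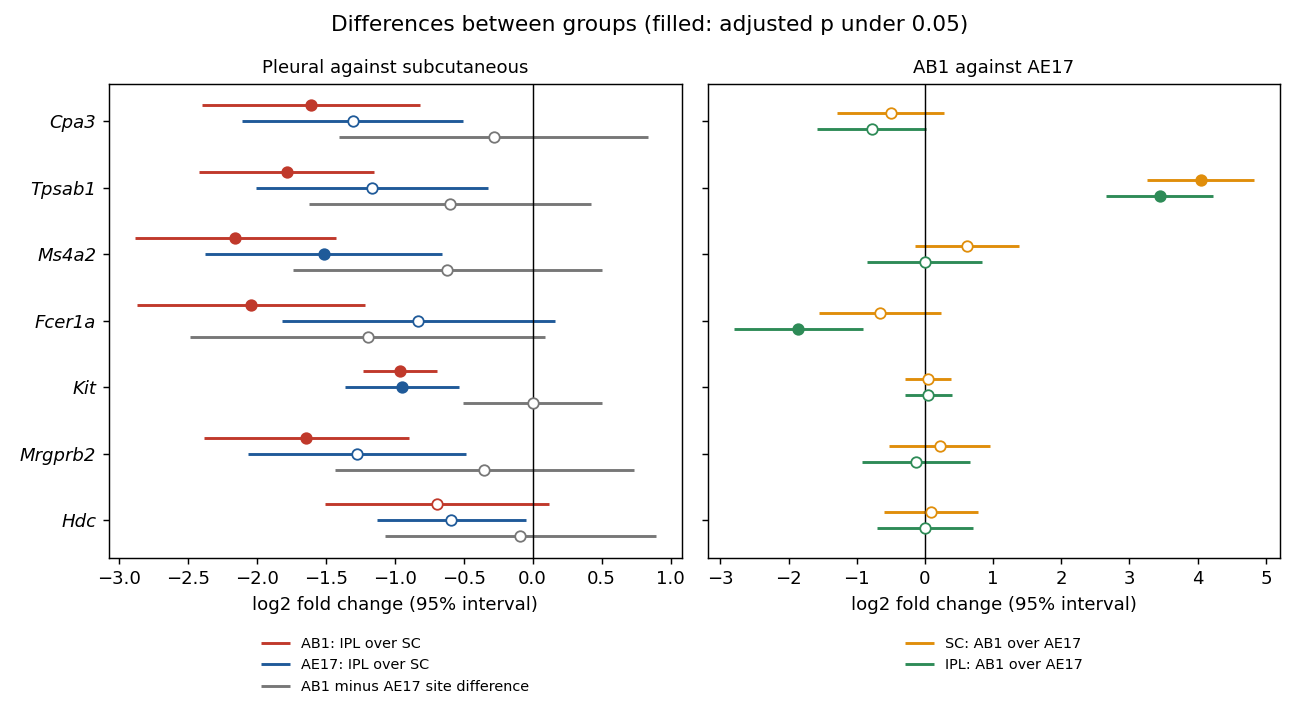
Log2 fold changes with 95% intervals from the edgeR fits, filled where the adjusted p was under 0.05; left, IPL over SC in AB1 and AE17 and the difference between them, right, AB1 over AE17 at each site. All 14 site values on the left lie below 0, all 7 intervals of their difference cross 0, and Tpsab1 is far from 0 on the right at both sites.

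Between the models, the tryptase Tpsab1 stood apart. In SC tumors it ranged from 141 to 317 CPM in AB1 and from 5.18 to 23.9 CPM in AE17. In IPL tumors it ranged from 13 to 117 CPM in AB1 and from 0.513 to 9.62 CPM in AE17. The lowest AB1 tumor was above the highest AE17 tumor of the same site, and 30.9% of all genes separated the models in SC tumors and 28.1% in IPL tumors. Mean levels were 16.5 times higher in AB1 SC tumors and 10.9 times higher in AB1 IPL tumors, with log2 fold changes of 4.04 ± 0.39 (SE, adjusted p = 1.74e-10, edgeR) and 3.44 ± 0.39 (SE, adjusted p = 3.94e-09, edgeR). It was the only gene of the 7 called between SC tumors, where 58.3% of all genes were called.

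Between IPL tumors 63.4% of all genes were called, and of the 7 genes Tpsab1 and Fcer1a were. Fcer1a was lower in AB1 IPL tumors (0.105 to 4.1 CPM, against 1.14 to 9.74 CPM in AE17 IPL), at a log2 fold change of -1.85 ± 0.47 (SE, adjusted p = 0.00091, edgeR). Of the 8 AE17 IPL tumors, 7 were above all AB1 IPL tumors. With the lane as a covariate its log2 fold change was -1.81 (adjusted p = 0.115). Between SC tumors Fcer1a was at -0.66, with a 95% interval of -1.55 to 0.23. Kit was nearly level between the models, at 0.05 in SC tumors (95% interval -0.29 to 0.39) and 0.05 in IPL tumors (95% interval -0.30 to 0.39). Cpa3 was at -0.50 in SC tumors and -0.78 in IPL tumors, neither called, though it passed in IPL without AB1 IPL replicate 2 (adjusted p = 0.048) or AE17 IPL replicate 8 (adjusted p = 0.03). No lane held tumors of the same site from both models, and the fit with lane as a covariate links them only through lanes shared across sites. In that fit Tpsab1 was still higher in AB1, at 3.72 in SC tumors (adjusted p = 8.8e-05, edgeR) and 3.34 in IPL tumors (adjusted p = 0.0017, edgeR).

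**Figure D3:**
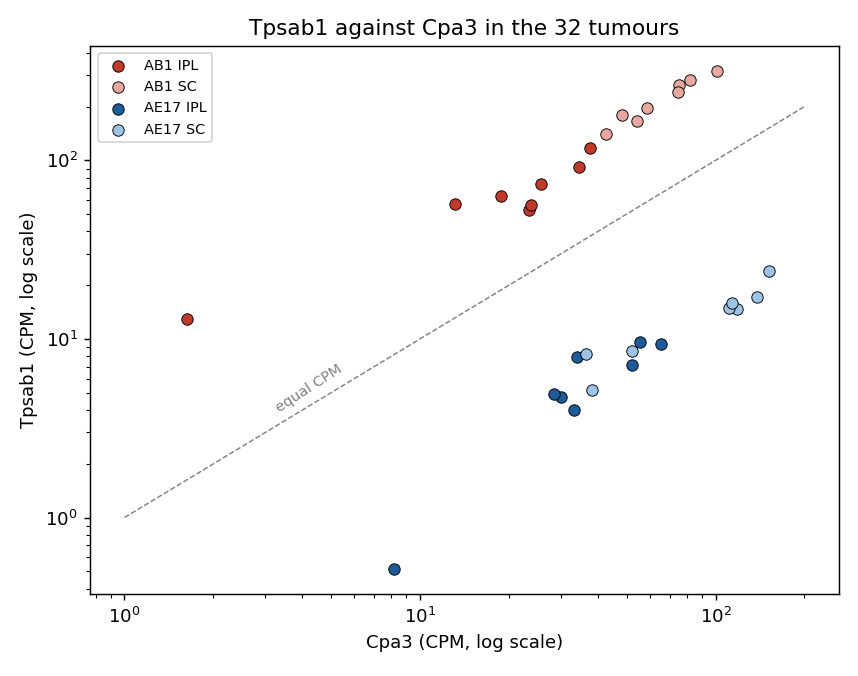
Tpsab1 against Cpa3 in CPM, both axes on a log scale, with 1 point per tumor and a dashed line of equal level. The 16 AB1 tumors lie above the line and the 16 AE17 tumors below it, at both sites.

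To ask whether a gene moved with the site by more or less than Cpa3, each tumor's log2 ratio of the gene to Cpa3 was compared by an exact two-sided permutation test (0.1 CPM added to both; 6 genes in 2 models, 12 ratios, unadjusted p, smallest possible 0.000155). Of all genes, 95.7% in AB1 and 88.3% in AE17 had a p under 0.05 for their own ratio to Cpa3, against 5 of these 12 ratios. The ratios of Tpsab1 and Mrgprb2 did not pass in either model. The log2 ratio of Tpsab1 differed between IPL and SC tumors by -0.02 ± 0.20 (SE, exact permutation p = 0.949) in AB1 and -0.02 ± 0.20 (exact permutation p = 0.917) in AE17. That of Mrgprb2 differed by 0.09 ± 0.12 (exact permutation p = 0.49) and -0.02 ± 0.13 (exact permutation p = 0.892).

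Kit fell less than Cpa3 in AB1, with a difference of 0.97 ± 0.46 (SE, exact permutation p = 0.00124). The highest Kit to Cpa3 ratio was 7.35, in AB1 IPL replicate 4, without which the difference was 0.53 (exact permutation p = 0.00233), and the group medians were 0.651 in AB1 IPL and 0.422 in AB1 SC tumors. In AE17 the Kit ratio differed by 0.41 ± 0.31 (exact permutation p = 0.213), and by 0.18 to 0.52 when each tumor was left out. Fcer1a and Ms4a2, the alpha and beta chains of the IgE receptor, had ratios of the same sign in AB1. They were not tested against each other. Fcer1a fell more than Cpa3 in AB1 (-0.35 ± 0.12, exact permutation p = 0.0155), while in AE17, where neither gene passed the site test, its ratio to Cpa3 was higher in IPL tumors (0.72 ± 0.26, exact permutation p = 0.00591). Ms4a2 differed by -0.44 ± 0.20 in AB1 (exact permutation p = 0.0437) and -0.20 ± 0.11 in AE17 (exact permutation p = 0.102). The AB1 values of Fcer1a and Ms4a2 depended on the added constant: with 0.5 CPM they were -0.03 (exact permutation p = 0.951) and -0.10 (exact permutation p = 0.734). The AB1 value of Ms4a2 also missed 0.05 without any of 12 of the 16 tumors (exact permutation p up to 0.0904), and ran from -0.53 to -0.30 when each of the 16 was left out. The ratio of Hdc to Cpa3 was higher in AE17 IPL than in AE17 SC tumors (0.90 ± 0.36, exact permutation p = 0.00761), and the difference was 0.60 without AE17 IPL replicate 8 (exact permutation p = 0.0131). In AB1 its ratio differed by 0.91 ± 0.62 (exact permutation p = 0.15), and by 0.38 without AB1 IPL replicate 4. When each tumor was left out it ran from 0.38 to 1.16 (exact permutation p from 0.0289 to 0.299), and 15 of 16 missed 0.05.

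The same ratios were compared between the models at each site, a comparison chosen after the values were seen, and 10 of 12 had an unadjusted p under 0.05, as did 32.4% of all genes in SC and 33.9% in IPL tumors. Against Cpa3, AB1 tumors held more Tpsab1 by 4.48 ± 0.11 on the log2 scale in SC tumors and 4.49 ± 0.26 in IPL tumors (exact permutation p = 0.000155 each, the smallest possible). Ms4a2 was higher against Cpa3 in AB1 by 1.12 ± 0.10 in SC (exact permutation p = 0.000155) and 0.88 ± 0.21 in IPL tumors (exact permutation p = 0.0014). Mrgprb2 was higher by 0.66 ± 0.11 (exact permutation p = 0.000622) and 0.76 ± 0.14 (exact permutation p = 0.000155). By its own level neither gene was called between the models (edgeR). Ms4a2 was at 0.62 in SC (adjusted p = 0.156) and -0.00083 in IPL tumors (adjusted p = 0.999). Mrgprb2 was at 0.22 (adjusted p = 0.625) and -0.13 (adjusted p = 0.784). All 12 ratios share Cpa3, so they are not separate results. Fcer1a against Cpa3 differed by 0.06 ± 0.26 in SC tumors (exact permutation p = 0.896) and by -1.01 ± 0.13 in IPL tumors (exact permutation p = 0.000155). The Kit ratio between IPL tumors, 1 of the 10, differed by 1.01 ± 0.53 (exact permutation p = 0.0491) and missed 0.05 without any of 12 of the 16 tumors (exact permutation p up to 0.102). Without AB1 IPL replicate 4 it differed by 0.57 (exact permutation p = 0.0954), and without AE17 IPL replicate 8 by 1.24 (exact permutation p = 0.00311).

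**Figure D4:**
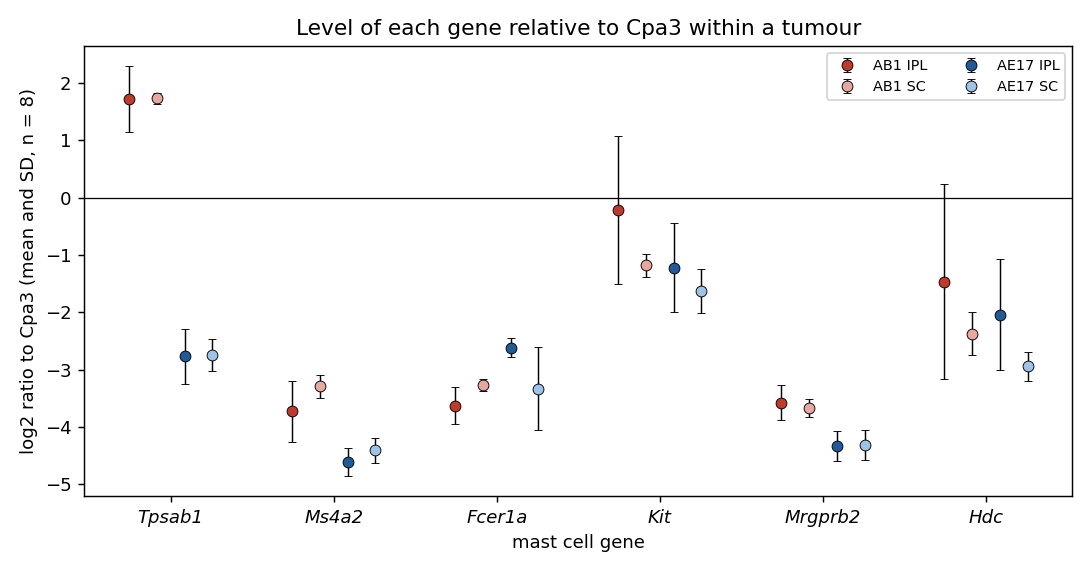
Mean log2 ratio of each gene to Cpa3 within a tumor (bars, SD, n = 8 tumors per group). Tpsab1 is above Cpa3 in AB1 and below it in AE17 with little difference between sites, and the bars of Kit and Hdc are widest in the IPL groups.

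Genes that varied with Cpa3 from tumor to tumor were looked for after the 4 group means had been removed (log2 CPM, Pearson r over 32 tumors, 15680 genes, given as a description). The median r of all genes was 0.0374, with 5% below -0.461 and 5% above 0.549. Mrgprb2 ranked first with an r of 0.967 (Spearman rho 0.948). Ms4a2 had rank 4 (r = 0.941, rho 0.878), Fcer1a rank 7 (r = 0.923, rho 0.933) and Tpsab1 rank 8 (r = 0.911, rho 0.899). Without the 2 tumors farthest from the median of Cpa3, AE17 IPL replicate 8 and AB1 IPL replicate 4, these were 0.926, 0.883, 0.896 and 0.891. Within single groups of 8 tumors the r of Mrgprb2 was between 0.933 and 0.985.

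Kit had an r of 0.666 (rho 0.757, rank 141), and 0.815 (rank 10) without those 2 tumors. Hdc was furthest from the rest, with an r of 0.314 (rho 0.434, rank 3324), and 0.634 without the 2 tumors. Its r with Cpa3 was 0.953 within AE17 SC tumors but -0.26 within AE17 IPL and 0.0777 within AB1 IPL tumors. Among the 15 pairs of genes without Hdc r ran from 0.644 to 0.967 (median 0.879), and among the 6 pairs with Hdc from 0.218 to 0.602 (median 0.301).

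Outside the set, the genes most like Cpa3 were Mrgprb1 (r = 0.956, rho 0.923) and Mrgprx2 (r = 0.953, rho 0.9), receptors of the Mrgpr family that lie near Mrgprb2 on chromosome 7. Next came Tph1 (r = 0.940, rho 0.915), the enzyme that opens serotonin synthesis outside the brain, and Cd200r3 (r = 0.928, rho 0.915), an activating receptor of mast cells and basophils. Group means were removed before this choice, but genes picked for varying with Cpa3 are not separate support for its site difference. Mrgprb1 and Mrgprx2 shared no stretch of 50 bases with other transcripts.

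Each of these genes was lower in AB1 IPL than in AB1 SC tumors, and 3 of the 4 were lower in AE17 IPL tumors. Of all genes tested, 10.7% were called lower in AB1 IPL and 3.13% in AE17 IPL tumors. Mrgprb1 ranged from 0.105 to 5.01 CPM in AB1 IPL and 5.19 to 21 CPM in AB1 SC tumors (log2 fold change -2.22, adjusted p = 0.00162, edgeR), and its value in AE17 was -1.44 (adjusted p = 0.047). Cd200r3 had log2 fold changes of -2.25 in AB1 (adjusted p = 0.000158) and -1.47 in AE17 (adjusted p = 0.0231), and Mrgprx2 of -2.23 (adjusted p = 0.000522) and -1.33 (adjusted p = 0.0423). Tph1 was lower in AB1 IPL tumors (-1.91, adjusted p = 0.000238), while in AE17 its value of -1.16 did not pass (adjusted p = 0.0566). Tph1 was also higher in AB1 than in AE17 tumors, by 1.75 in SC (adjusted p = 2.65e-05) and 1.03 in IPL tumors (adjusted p = 0.00949). With the lane as a covariate the log2 fold changes between sites were -1.89 to -2.23 in AB1 and -1.59 to -1.90 in AE17. Of all genes, 2.64% were called between the AB1 sites and 0.00682% between the AE17 sites with lane. The calls of Mrgprb1 (adjusted p = 0.197), Mrgprx2 (adjusted p = 0.203) and Cd200r3 (adjusted p = 0.189) in AE17 were lost in that fit, as were those of Mrgprb1 (adjusted p = 0.118) and Mrgprx2 (adjusted p = 0.0614) in AB1 and those of Tph1 between the models (1.13, adjusted p = 0.176 in SC, and 0.85, adjusted p = 0.347 in IPL tumors).

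**Figure D5:**
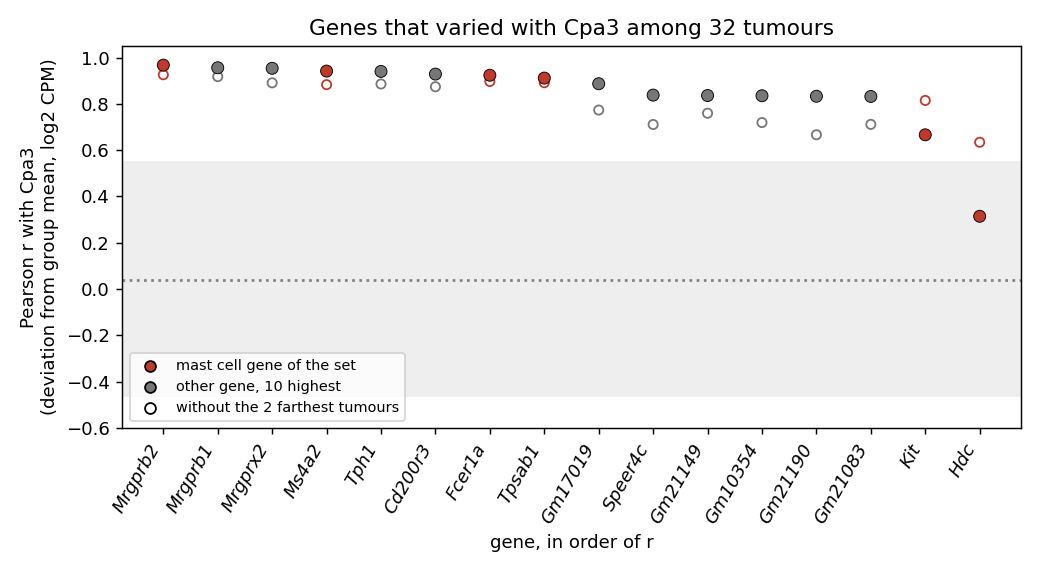
Pearson r with Cpa3 after removal of group means, over 32 tumors (filled) and without the 2 farthest tumors (open), for 6 genes of the set and the 10 other genes with the highest r; grey marks the range from the 5th to the 95th percentile of all genes and the dotted line their median. Mrgprb2 is first, and Kit and Hdc are the last of those drawn.

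The wider mast cell program was described with 55 further genes, of which 41 had a row. Of 35 tested in AB1, 14 were lower in IPL tumors and 1 was higher, with a median log2 fold change of -0.29, where 10.7% of all genes were lower and 23% were called in either direction. Of 36 tested in AE17, 3 were lower and 1 was higher, with a median of 0.05, where 3.13% of all genes were lower and 5.73% were called in either direction. Surface receptors held 4 of the 14 lower genes in AB1 (of 5 tested) and signalling genes below the IgE receptor and Kit held 7 (of 11 tested). These counts are from the fit without lane. With the lane as a covariate, where 2.64% of all genes were called in AB1, calls such as those of Fcer1g and Lat2 were lost. Those of Cd200r3 (-2.23, adjusted p = 0.0177, edgeR) and Il1rl1 were kept. None of the transcription factors (5 tested in AB1, 4 in AE17) was called between the sites. Many of these genes are shared with other leukocytes, and Ptprc moved in the same way (-1.18 in AB1, 0.01 in AE17); the part of other leukocytes in these counts was not tested.

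Among surface receptors, Il1rl1, the receptor of IL-33, ranged from 113 to 319 CPM in AB1 IPL and from 343 to 607 CPM in AB1 SC tumors (log2 fold change -1.36, adjusted p = 9.09e-05, edgeR). It was also lower in AE17 IPL tumors (-0.71, adjusted p = 0.0273). Fcer1g, the gamma chain that the IgE receptor shares with other Fc receptors of myeloid cells, was lower in AB1 IPL tumors (-0.65, adjusted p = 0.00213), and its value in AE17 was 0.10 (adjusted p = 0.693). That difference between the models was called (-0.73, adjusted p = 0.00966). Lat2, an adaptor of Kit and Fc receptor signalling in many leukocytes, followed the same course (-0.51, adjusted p = 0.00273 in AB1, 0.33, adjusted p = 0.169 in AE17). With the lane as a covariate the log2 fold changes were of similar size with larger errors, and several calls were lost. Fcer1g was at -0.56 in AB1 (SE 0.21, against 0.13 without lane, adjusted p = 0.176) and at -0.75 for the difference between the models (adjusted p = 0.182). Lat2 was at -0.48 in AB1 (adjusted p = 0.165) and Il1rl1 at -0.81 in AE17 (adjusted p = 0.189), while the call of Il1rl1 in AB1 was kept (-1.16, adjusted p = 0.0312). From tumor to tumor these genes followed Cpa3 loosely, with an r of 0.168 for Il1rl1, 0.237 for Fcer1g and 0.207 for Lat2.

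Plcg1, a phospholipase found in most cells, was the called gene that was higher in AB1 IPL tumors (0.27, adjusted p = 0.00759). Its r with Cpa3 was -0.25, and with the lane as a covariate its value was 0.18 (adjusted p = 0.432). Kitl, which encodes stem cell factor, was not called between sites (-0.50, adjusted p = 0.146 in AB1, 0.15, adjusted p = 0.405 in AE17). Kitl was lower in AB1 than in AE17 tumors, with log2 fold changes of -1.20 in SC (adjusted p = 4e-06) and -1.82 in IPL tumors (adjusted p = 1.97e-09), whereas its receptor Kit was level. Gata2, a transcription factor of mast cells and progenitors, was higher in AB1 by 1.02 in SC tumors (adjusted p = 1.12e-07) and 0.69 in IPL tumors (adjusted p = 4.39e-05), and so was Pla2g4a, the phospholipase that frees arachidonic acid (1.26, adjusted p = 2.34e-08, and 0.80, adjusted p = 3.62e-05). With the lane as a covariate the call of Gata2 between IPL tumors was lost (0.57, adjusted p = 0.12). Lyn, a kinase bound to the IgE receptor, was lower in AB1, at -0.88 in SC and -1.38 in IPL tumors (adjusted p = 3.16e-06 and 7.14e-10). With 58.3% and 63.4% of all genes called between the models, such calls are common.

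Markers of the other cells that can hold these genes were checked. Basophil markers had 3 of 5 genes with a row (Cd200r3, Il4 and Itga2b), while the proteases Mcpt8 and Prss34 had none. Cd200r3 is also a mast cell receptor, so these markers do not set basophils apart. Their summed levels were 6.84 to 22.9 CPM in AB1 IPL, 10.5 to 22 CPM in AB1 SC, 11.2 to 18.8 CPM in AE17 IPL and 14.9 to 30.7 CPM in AE17 SC tumors. Lower in IPL tumors were Cd200r3 in both models and Itga2b in AE17 (adjusted p = 0.0452), while Il4 was not called between sites in either. Melanocyte markers, 2 of 5 with a row, reached at most 0.0931 CPM in 3 of the groups, with Tyr and Tyrp1 both at 0 in AB1 SC, and 0.95 CPM in AE17 SC tumors, beside 10.9 to 38.1 CPM of Kit. Neutrophil markers, 4 of 5 with a row, reached 405 CPM in AB1 IPL tumors (lowest 16.4 CPM) and between 16.7 and 82.6 CPM elsewhere, and of 3 tested in AB1, 2 were higher and 1 was lower in IPL tumors. The part of basophils and neutrophils in the values of Hdc, Fcer1a and Ms4a2 was not tested.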

How the data were processed

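RNA of 32 tumors was sequenced as 50-base single-end reads. The authors mapped them with HISAT2 2.0.4 (submitters' processing notes; the demultiplexer was bcl2fastq 1.8.4) counted them with summarizeOverlaps and deposited raw counts per gene, without normalization. The methods name the genome as mm11; 39495 of 39676 identifiers matched GENCODE M21 (GRCm38) without version. Depth was 15432258 to 20649645 counts, and 3 counts were the detection floor (counting error only). Groups came from sample titles, lanes from column names. The mice are separate animals.

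In R 4.3.3, edgeR 4.0.16 (filterByExpr, TMM, robust quasi-likelihood F test, two-sided, Benjamini-Hochberg over all genes, threshold 0.05) tested site within each model and, in 1 fit of 4 groups, the interaction and the models. The standard error is the size of the log2 fold change over the root of F. DESeq2 1.42.0, other scalings and filters, a replicate block, lane and leaving out each tumor were alternatives. The fit was tested on simulated data. Ratios used exact permutation tests coded in Python 3.11.15 with numpy 2.4.6. With the replicate block they used exact flips of the signs of paired differences.

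Named are all members, 8 genes of the wider list called in at least 2 comparisons with the smallest adjusted p, and the 10 genes most like Cpa3. Members and lists were chosen with earlier results of these data known. Ptprc, Tyr, Tyrp1, Il4 and Itga2b come from the marker lists.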

Additional observations from a re-analysis of the deposited data

Results flagged for a closer look

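Hdc in AB1 IPL tumors was singled out by 1 sample far from the others. AB1 IPL replicate 2 held 25.7 CPM and the next tumor 8.82 CPM, so that the gap was 0.708 of the group's range, above Dixon's 95% value of 0.526 for 8 samples. It was 1 case among 28 groups examined (7 genes in 4 groups), of which chance alone, at about 1 in 20, gives 1.4. The same tumor was the highest of its group in Cpa3, Tpsab1, Kit, Fcer1a and Mrgprb2, at 37.6 CPM of Cpa3, and its summed mesothelial markers were 76.2 CPM, beside 0.379 to 3.26 CPM in the other 7. The part of these cells in the Hdc value was not tested.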

How the results depend on the processing

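In AB1 IPL against SC tumors 6 of 7 genes were called under DESeq2 (20.7% of all genes called), DESeq2 size factors (23.3%) and no filter (13.5%). The count was also 6 at a threshold of 0.01 (13%) and with 1 fit of all groups (27.4%), and 6 to 7 when each tumor was left out. There were 3 with the lane as a covariate (2.64%) and 1 within lane 3 (1.06%). In AE17 the count was 2, against 5 with DESeq2 (9.87% of all genes called), 5 with the fit of all 4 groups (8.44%), 1 with no filter on low counts (1.93%), 0 at 0.01 (0.511%), 0 with the lane as a covariate (0.00682%), 0 within lane 1 (0.0911%), and 1 to 4 when each tumor was left out. All 7 log2 fold changes kept a negative sign in both models under these settings. Between IPL tumors of the 2 models the count was 2 (63.4% of all genes called), 1 with the lane as a covariate (31.9%) and 2 to 3 when each tumor was left out. Fewer tumors bear on the counts within a lane by construction. With the lane as a covariate all tumors stay in, but lane overlaps with site in part, which widens the errors by construction. The SE of Cpa3 was 0.54 with lane and 0.37 without it in AB1, and 0.56 and 0.38 in AE17. Other causes were not tested.

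Replicate numbers name different mice. The deviations of same-numbered tumors had an r of -0.287 to -0.00269 in AB1, where 0 of 8 pairs were best with their own number, and of -0.227 to 0.271 in AE17, 3 of 8, so that neither model had every pair positive. With a replicate block 6 genes were called in AB1 (15.5% of all genes) and 4 in AE17 (4.51%), where the block added Cpa3 (-1.31 ± 0.20, adjusted p = 0.0128) and Mrgprb2 (-1.34 ± 0.23, adjusted p = 0.0184). Of the site ratios to Cpa3, that of Ms4a2 in AB1 no longer passed with the block (-0.44, exact paired sign-flip p = 0.117, smallest possible 0.0078). Without the block the unpaired exact permutation p was 0.0437. No paired analysis was possible for AB1 against AE17 because the numbers were taken as blocks within a model.

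Values near 0 changed sign. Kit in the interaction became 0.0068 with DESeq2 and 0.0057 with its size factors, 0.017 without a filter and 0.10 with lane, and Cpa3 became 0.13 with lane. Kit became -0.22 between SC and -0.12 between IPL tumors with lane, and Hdc became -0.11 between IPL tumors with lane. Ms4a2 between IPL tumors became 0.0030 with DESeq2 size factors and 0.023 without a filter. Leaving out each tumor gave, between IPL tumors, -0.54 to 0.15 for Hdc, -0.0036 to 0.11 for Kit, -0.33 to 0.059 for Mrgprb2 and -0.17 to 0.18 for Ms4a2. Between SC tumors it gave -0.037 to 0.18 for Hdc and -0.036 to 0.12 for Kit, and in the interaction -0.63 to 0.068 for Hdc and -0.071 to 0.088 for Kit. With 0.5 CPM added, 3 of 12 site ratios passed in place of 5, and the AE17 ratios of Mrgprb2, Ms4a2 and Tpsab1 became 0.19, 0.064 and 0.081. Leaving out each tumor, an alternative chosen after seeing the data for the ratios, gave -0.19 to 0.061 for Tpsab1 in AB1, -0.12 to 0.12 for Tpsab1 and -0.058 to 0.067 for Mrgprb2 in AE17, and -0.16 to 0.16 for Fcer1a between SC tumors. The Tpsab1 share of tryptase counts, planned, was not run because Tpsb2 is not analysed here.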

Other observations

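Among the 10 genes outside the set with the highest r with Cpa3, 6 belonged to a single cluster of near-identical gene copies on chromosome 5 (chr5:14974113-15714271, GRCm38): Gm17019 (r = 0.887), Speer4c (0.838), Gm21149 (0.836), Gm10354 (0.835), Gm21190 (0.833) and Gm21083 (0.832). Between 64.5% and 90.7% of the 50-base stretches in their transcripts also occur in other genes, mostly of the same cluster, so reads cannot be assigned to a single copy with certainty. Their levels were low, with Gm21083 the highest at 0.158 to 1.44 CPM in AB1 IPL and 1.47 to 3.33 CPM in AB1 SC tumors, and Gm21083 was lower in AB1 IPL tumors (log2 fold change -1.33, adjusted p = 0.00212, edgeR), a call lost with the lane as a covariate (-1.09, adjusted p = 0.186). The count of 6 rests on 2 tumors: without AE17 IPL replicate 8 and AB1 IPL replicate 4, the farthest from the median of Cpa3, the r of these genes was between 0.666 and 0.773, and 2 of them (Gm17019 and Gm21149) were still among the 10 highest.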
